A study of Mus musculus with 23 samples.

Results

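Gja1 and Gjb6, which encode the 2 main connexins of astrocyte gap junctions, and Aqp4, which encodes the water channel of astrocyte endfeet, were measured in injured mouse spinal cord after treatment with hydrogel depots. They were chosen by name, as 3 of the 9363 genes listed in the HA table and of the 4898 genes listed in the FT table. The tissue came from young adult mGFAP-Cre-RiboTag mice. In these animals Cre activity driven by a Gfap promoter puts a hemagglutinin tag on ribosomes. The labels give the genotype of every library as wild type. All groups share a severe crush at thoracic level 10 as the spinal cord injury (SCI), and tissue was taken from the central 3 mm of the lesion at 14 days. HA is the RNA precipitated through the tag, and FT is the flow-through that was not precipitated.

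The 23 libraries formed 6 groups. HA had 3 libraries with SCI and a hydrogel with growth factors, 3 with SCI and hydrogel CT, and 4 with SCI only. FT had 5 libraries with SCI and a hydrogel with growth factors, 4 with SCI and hydrogel CT, and 4 with SCI only. The depots were injected 2 days after injury. FGF and EGF are named in the title of the series, but the columns of the deposited tables call the growth factor group a BDNF and NT3 gel. They call hydrogel CT EmGel, and CT is not explained by the labels. All groups share the injury and the transgenes, so no group shows an uninjured cord. The tag follows activity of a Gfap promoter and not astrocyte identity as such. The hydrogel groups and the SCI only group carry separate runs of title numbers, so a difference between the hydrogel groups and SCI only cannot be told apart from a difference between 2 sets of animals or libraries. Libraries are named here by fraction, treatment and title number.

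Gap junctions are channels that join the cytoplasm of neighbouring cells. In the cord, astrocytes build them mostly from the products of Gja1 and Gjb6 and use them to pass potassium ions, glucose metabolites and calcium signals through the glial network. The aquaporin encoded by Aqp4 sits in the astrocyte membrane that faces vessels and the pial surface, where it is anchored by the dystrophin complex and lies near the potassium channel encoded by Kcnj10. Loss of its polarised position and swelling of the tissue are well known after injury of the central nervous system.

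The promoters of both connexin genes are shown as background, and that of Aqp4 is not shown. RefSeq (GRCm38.p6) gives 250 bases before the annotated start of Gja1 at chr10:56377050-56377299 on the plus strand and before that of Gjb6 at chr14:57133612-57133861 on the minus strand. Each is printed on its own strand, with matches to 4 searched motifs in capitals.
Gja1: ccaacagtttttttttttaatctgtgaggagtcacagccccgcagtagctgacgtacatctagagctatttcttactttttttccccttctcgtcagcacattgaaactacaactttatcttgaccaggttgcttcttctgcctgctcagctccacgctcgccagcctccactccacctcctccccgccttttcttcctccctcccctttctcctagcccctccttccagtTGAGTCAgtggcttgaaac
Gjb6: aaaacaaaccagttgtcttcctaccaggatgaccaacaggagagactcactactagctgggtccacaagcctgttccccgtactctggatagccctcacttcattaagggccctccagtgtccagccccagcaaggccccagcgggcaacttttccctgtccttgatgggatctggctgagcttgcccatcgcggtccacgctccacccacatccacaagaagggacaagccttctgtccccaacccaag
The capitals in Gja1 mark the only match, the AP-1 motif TGAGTCA, whose first base lies at position -19 counted back from the RefSeq start. The Gjb6 window held no match. The letters searched were TGAGTCA or TGACTCA for AP-1, ATTGT or ACAAT for a SOX core, TTGGC or GCCAA for an NFI half-site, and TATAAA or TTTATA for a TATA box, each pair being the 2 strands of a motif. Among 32851 RefSeq promoter windows of that length, 4.46% held the AP-1 letters, 27.7% the SOX core, 41.5% the NFI half-site and 12.4% the TATA box. A match describes letters only, and binding was not measured.

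Each gene had 1 transcript row in each table. On GENCODE M21 (mm10), the Gja1 row was transcript Gja1-201 on the plus strand of chromosome 10, from 56377330 to 56390415, with 2 exons, 3071 bases in all and 1146 coding bases. The Gjb6 row was Gjb6-201 on the minus strand of chromosome 14, from 57123303 to 57133611, with 3 exons, 2105 bases and 783 coding bases. The Aqp4 row was Aqp4-201 on the minus strand of chromosome 18, from 15389496 to 15403758, with 5 exons, 5054 bases and 969 coding bases. An antisense gene overlaps Aqp4 on the opposite strand and is listed in neither table. No source used here gives the strand setting of the counting, so reads of that gene could not be told apart from those of Aqp4.

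A ribosomal-RNA-like locus, Yam1, took a large and uneven part of the counts, from 13.7% (FT library 1732) to 93.1% (HA library 9935). Levels are therefore given as CPM relative to the protein-coding counts of the same library, with Lars2 left out. The protein-coding counts behind them numbered 282734 to 1523813 in HA with growth factors, 2846894 to 5800354 in HA with hydrogel CT, 202299 to 780502 in HA with SCI only, 2251 to 115730 in FT with growth factors, 4249 to 39203 in FT with hydrogel CT and 26899 to 255152 in FT with SCI only. FT values therefore rest on few reads, and 4 FT libraries (1645, 1687 and 1729 with growth factors, and 1683 with hydrogel CT) had fewer than 10000. The astrocyte label of HA was checked on 12 marker genes without the 3 members. Of 9 tested, 6 were higher in HA than in FT and 0 lower. Progenitor markers of oligodendrocytes were also higher in HA (5 of 5 tested), as were 3 of 6 myelin genes, while 6 of 7 microglia and macrophage markers and 5 of 5 neuron markers were lower. Of 6 endothelial markers, 4 were not listed in HA and none was listed in FT, and those listed summed to 0 to 14.2 CPM in HA.

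The astrocyte markers set 2 FT libraries apart. In 1729 (growth factors) and 1683 (hydrogel CT) the astrocyte markers summed to 60383 and 72252 CPM, against 7613 to 23100 in the other 11 FT libraries and 34743 to 60038 in HA. The FT sums hold 9 of the 12 markers, without Aldh1l1, Fgfr3 and Ndrg2, and the HA sums hold all 12, so the 2 fractions sum unlike sets. Neither 1729 nor 1683 has an HA library of the same number. Results within FT are given with them and, for part of the results, also without them. The comparison of HA with FT uses title numbers with both fractions and so holds neither. It does hold FT library 1732 (growth factors), with the lowest sums of astrocyte (7613 CPM) and oligodendrocyte markers (1469 CPM) in FT. The protein-coding share of its counts was 79.6%. In bulk RNA, fewer cells of a type and less RNA per cell cannot be told apart.

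Gja1 was present in all 10 HA libraries. Its HA level was 1004, 1602 and 1189 CPM with growth factors (1685, 1687 and 1732), 1535, 1049 and 1991 with hydrogel CT (1724, 1759 and 1762), and 394.6, 627.3, 446.9 and 795.9 with SCI only (9596, 9843, 9874 and 9935). Every hydrogel library lay above every SCI only library, as for 1.14% of the 7623 genes with counts in enough libraries, and the 2 hydrogel groups overlapped. In FT, the level of Gja1 was 0, 341.3, 465.6, 3327 and 112.3 CPM with growth factors (1645, 1685, 1687, 1729 and 1732), 3060, 182.5, 561.2 and 2368 with hydrogel CT (1683, 1724, 1759 and 1762), and 203.8, 277.5, 166.5 and 37.18 with SCI only (9596, 9843, 9874 and 9935). These FT levels stand for 0 to 52 counts a library, so the 0 in library 1645, of 2251 protein-coding counts, does not show that the transcript was absent. The 3 highest FT libraries included both that stood apart by their markers, and the third was 1762.

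Gjb6 spread more widely within groups. Its HA level was 962.1, 130.9 and 1821 CPM with growth factors, 837.8, 1402 and 2061 with hydrogel CT, and 448.4, 377.2, 339.5 and 499.3 with SCI only, in the same library order. The low value among the growth factor libraries was 1687, with 37 counts, and it lay below all 4 SCI only libraries. All 3 hydrogel CT libraries lay above them, as for 7.2% of 7737 genes. In FT, the level of Gjb6 was 0, 204.8, 776.0, 1714 and 43.20 CPM with growth factors, 4001, 182.5, 1275 and 1040 with hydrogel CT, and 97.98, 160.1, 41.62 and 37.18 with SCI only. The FT levels stand for 0 to 50 counts a library, and every hydrogel CT library lay above every SCI only library, as for 3.02% of 4411 genes, while the growth factor libraries spanned both.

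Aqp4 was the most counted of the 3 genes in every library. Its HA level was 4852, 2656 and 5017 CPM with growth factors, 5496, 6435 and 9386 with hydrogel CT, and 2990, 3110, 2779 and 2912 with SCI only. The SCI only libraries were close to each other, all hydrogel CT libraries lay above them, and 1687 lay below them. The place of 1687 depended on the scaling. With libraries scaled by the typical gene instead (TMM), it lay above them, at 191.2 against 155.5 to 174.3 CPM. In FT, the level of Aqp4 was 444.2, 1911, 1707, 12702 and 440.7 CPM with growth factors, 9179, 2464, 3954 and 4447 with hydrogel CT, and 2559, 1398, 1842 and 1227 with SCI only. The highest FT values again came from 1729 and 1683. Per kilobase of transcript, so that genes can be set side by side, the HA median was 787.6 for Aqp4, 334.2 for Gja1 and 317.6 for Gjb6 CPM per kilobase. The HA ranges of Gja1 (128.5 to 648.5) and Gjb6 (62.17 to 979.2) overlapped over most of their length, and that of Aqp4 was 525.6 to 1857.

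**Figure D1:**
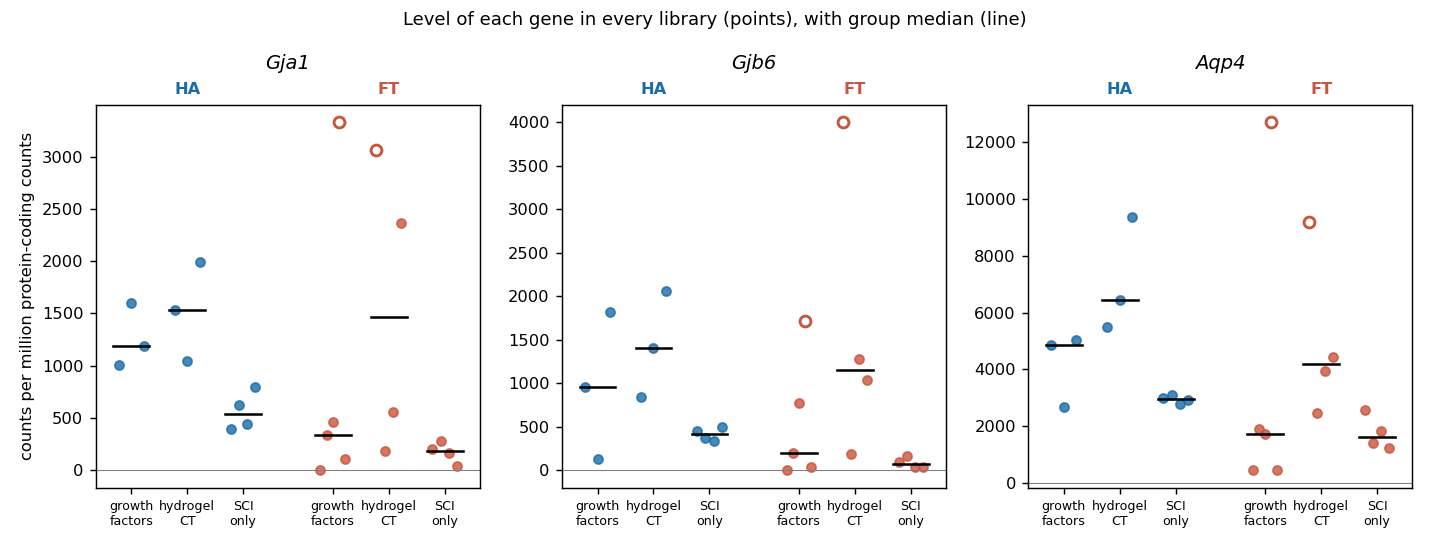
Level of Gja1, Gjb6 and Aqp4 in each of the 23 libraries, in CPM of protein-coding counts (y axis), by fraction and treatment (x axis). Each point is a library, the line is the group median, and open points are the FT libraries 1729 and 1683. The HA points of Gja1 lie between 1004 and 1991 with hydrogel and between 394.6 and 795.9 with SCI only.

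The first comparison asked which fraction held more of each transcript, over the 10 title numbers that have both fractions. All 3 genes were higher in HA. Within a title number, the level of Gja1 was higher in HA than in FT in 9 of 10, with a median ratio of 2.81 and a range from 0.841 to 21.4, the exception being 1762. That of Gjb6 was higher in 9 of 10, with a median of 4.58 and a range from 0.169 to 42.2, the exception being 1687. That of Aqp4 was higher in 10 of 10, with a median of 2.17 and a range from 1.17 to 11.4. The highest ratio of Gja1 was that of 9935, on 1 FT count, and the highest of Gjb6 and of Aqp4 were those of 1732. The direction was shared by at least 9 of the 10 numbers for each gene, while the size of the ratio varied widely. Over the libraries of those numbers, Gja1 had a lowest, median and highest level of 394.6, 1026 and 1991 CPM in HA and 37.18, 240.6 and 2368 in FT. Gjb6 had 130.9, 668.5 and 2061 CPM in HA and 37.18, 171.3 and 1275 in FT. Aqp4 had 2656, 3981 and 9386 CPM in HA and 440.7, 1876 and 4447 in FT. The fractions overlapped for all 3 genes.

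In the edgeR quasi-likelihood fit of all genes, which scales libraries by the typical gene (TMM) and so is on another scale than the CPM levels, Gja1 was 2.25 higher in HA on the log2 scale (SE 0.44, adjusted p = 0.000294), Gjb6 2.50 (SE 0.50, adjusted p = 0.000323) and Aqp4 1.91 (SE 0.37, adjusted p = 0.000211). All 3 members passed upward, as did 12.5% of the 4571 genes tested, and the median gene stood at 0.31. Scaling by the total of protein-coding counts moved that median to -0.26 and the members to 1.56, 1.77 and 1.17 in the same order. All 3 still passed under it, with adjusted p-values of 0.00657, 0.00785 and 0.00392, while 221 genes were called higher and 455 lower, against 572 and 295 by TMM. With all 23 libraries, and so with 1683 and 1729, the differences were 1.65 (adjusted p = 0.0108), 1.94 (adjusted p = 0.00447) and 1.36 (adjusted p = 0.0171).

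Within the growth factor libraries (HA and FT of 1685, 1687 and 1732), edgeR gave a log2 difference of 3.77 for Gja1 (SE 0.83, adjusted p = 0.0031). Gjb6 was higher in HA by 3.65 (SE 0.96, adjusted p = 0.0113) and Aqp4 by 3.24 (SE 0.63, adjusted p = 0.00116). All 3 passed, against 8.24% of the 4747 genes tested. The 391 genes behind that share became 268, 257 and 192 without 1685, 1687 and 1732. Without 1732 the median gene moved from 0.48 to 1.57. For Gjb6, leaving out 1732 ended the call (2.00, adjusted p = 0.212), leaving out 1687 gave 5.37 (adjusted p = 0.00183), and scaling by protein-coding total gave 2.12 (adjusted p = 0.134). By that scaling Gja1 stood at 2.41 (adjusted p = 0.0422) and Aqp4 at 1.78 (adjusted p = 0.0301), with 93 of 4485 genes called higher and 519 lower, against 391 and 210 by TMM. With hydrogel CT the differences were 1.37 (SE 0.71, adjusted p = 0.304) for Gja1, 1.52 (SE 0.80, adjusted p = 0.316) for Gjb6 and 1.74 (SE 0.58, adjusted p = 0.0967) for Aqp4. None of the 3 passed there, where 1.6% of genes did, although Aqp4 passed without 1732 (adjusted p = 0.032). The 76 genes behind that share became 11, 5 and 7 without 1762, 1759 and 1724, and 172 without 1732. By protein-coding total the 3 differences with hydrogel CT were 0.68, 0.87 and 1.07 in the same order, with 16 genes called higher and 61 lower, against 76 and 50 by TMM. With SCI only, Gjb6 was higher in HA by 2.67 (SE 0.75, adjusted p = 0.0363), while Gja1 stood at 2.08 (SE 0.63, adjusted p = 0.0514) and the difference of Aqp4 was 1.21 (SE 0.50, adjusted p = 0.182). One member of 3 passed, against 2.25% of genes. The 107 genes behind it became 23 to 30 when 1 SCI only number was left out, and by protein-coding total 53 genes were called higher and 117 lower, against 107 and 83 by TMM. That call of Gjb6 was lost without 9596 (adjusted p = 0.154), 9843 (0.0682), 9874 (0.153) or 9935 (0.186), and with scaling by protein-coding total (2.32, adjusted p = 0.068).

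A difference between fractions that passes in one treatment and not in another was tested as such. The difference with growth factors minus that with hydrogel CT was 2.40 (SE 1.06, adjusted p = 0.354) for Gja1, 2.13 (SE 1.23, adjusted p = 0.473) for Gjb6 and 1.50 (SE 0.82, adjusted p = 0.455) for Aqp4. No member passed, and of all genes 0% did. With growth factors minus SCI only, it was 1.69 (SE 1.00, adjusted p = 0.453) for Gja1, 0.99 (SE 1.18, adjusted p = 0.752) for Gjb6 and 2.02 (SE 0.77, adjusted p = 0.228) for Aqp4. No member passed there either, with 0.0421% of genes called. With hydrogel CT minus SCI only, it was -0.71 (SE 0.93, adjusted p = 0.957) for Gja1, -1.14 (SE 1.07, adjusted p = 0.948) for Gjb6 and 0.52 (SE 0.75, adjusted p = 0.96) for Aqp4. No member passed and 0% of genes did, so the size of the HA to FT difference was not shown to depend on treatment.

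**Figure D2:**
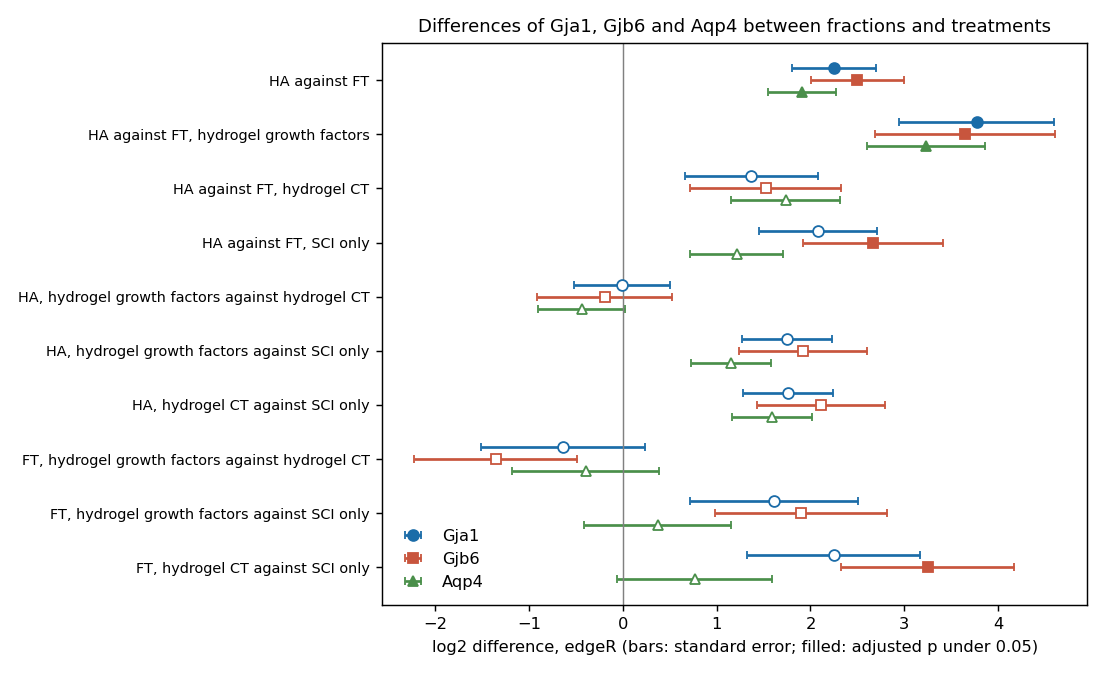
Log2 differences of the 3 genes in 10 edgeR comparisons (x axis, positive where the group named first is higher), with a row for each comparison. Points are estimates and bars are standard errors. Filled points have an adjusted p under 0.05, which holds for the 3 genes in HA against FT (2.25, 2.50 and 1.91) and within the growth factor libraries, for Gjb6 in HA against FT with SCI only, and for Gjb6 in FT with hydrogel CT against SCI only.

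The next comparisons asked whether the hydrogels went with another level of these transcripts in the tagged cells. Between the hydrogel groups the data showed no call. Gja1 averaged 1265 ± 306 CPM with growth factors and 1525 ± 472 with hydrogel CT (SD, n = 3 each). Gjb6 averaged 971 ± 845 CPM with growth factors and 1434 ± 612 with hydrogel CT, and Aqp4 averaged 4175 ± 1318 with growth factors and 7105 ± 2030 with hydrogel CT. In the edgeR fit, growth factors against hydrogel CT gave -0.0064 (SE 0.51, adjusted p = 0.998) for Gja1, -0.19 (SE 0.72, adjusted p = 0.931) for Gjb6 and -0.44 (SE 0.46, adjusted p = 0.703) for Aqp4. By the CPM levels, the groups overlapped for Gja1 and Gjb6. For Aqp4, every growth factor library lay below every hydrogel CT library on that scale, as for 19.2% of 7916 genes. On the TMM scale of the fit, the groups overlapped for Aqp4 too (191.2 to 453.9 CPM with growth factors, 352 to 698.4 with hydrogel CT). In either direction, 0.0902% of the 6654 genes tested were called by TMM. By protein-coding total, the scale of the CPM levels, the differences were -0.27 for Gja1, -0.56 for Gjb6 and -0.77 for Aqp4. None of the 3 passed there (adjusted p = 0.826, 0.716 and 0.316), with 0 genes called higher and 0 lower, against 6 and 0 by TMM.

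Against SCI only, the HA differences of all 3 genes were positive with either hydrogel, and none passed the threshold. With SCI only, Gja1 averaged 566 ± 183 CPM, Gjb6 416 ± 71.5 and Aqp4 2948 ± 139 (SD, n = 4). Growth factors against SCI only gave 1.75 (SE 0.48, adjusted p = 0.0899) for Gja1, 1.92 (SE 0.68, adjusted p = 0.145) for Gjb6 and 1.15 (SE 0.43, adjusted p = 0.158) for Aqp4. No member was called, against 0.331% of genes called higher. By the CPM levels, the libraries of these 2 groups did not overlap for Gja1 alone of the 3, as for 2.2% of 6683 genes. On the TMM scale of the fit, they did not overlap for Aqp4 either (191.2 to 453.9 CPM with growth factors, 155.5 to 174.3 with SCI only). The share of all genes was not counted on that scale. DESeq2 called Gja1 (1.68, adjusted p = 0.0268), with 298 of 6654 genes called higher. Without 1687, Gjb6 passed (2.49, adjusted p = 0.0281), with 113 of 7915 genes called higher, and without 1732 it stood at 1.14 (adjusted p = 0.35). By protein-coding total, the scale of the CPM levels, the differences were 1.16 for Gja1, 1.23 for Gjb6 and 0.50 for Aqp4, with 3 genes called higher and 8 lower, against 22 and 7 by TMM.

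Hydrogel CT against SCI only gave 1.76 (SE 0.48, adjusted p = 0.157) for Gja1, 2.11 (SE 0.68, adjusted p = 0.211) for Gjb6 and 1.59 (SE 0.43, adjusted p = 0.15) for Aqp4. No member was called, against 0.0451% of genes called higher (3 higher and 10 lower by TMM, 1 and 1 by protein-coding total). All 3 members had every hydrogel CT library above every SCI only library, a share of 7.2% among all genes. Fitting only the 2 groups, the calls of Gjb6 (2.11, adjusted p = 0.0326) and Aqp4 (1.59, adjusted p = 0.0384) passed, and that of Gja1 did not. In that fit 75 of 6783 genes were called higher, against 3 of 6654 in the fit of all 3 groups.

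The authors' deposited table gives other calls for the same HA rows. The authors' deposited table lists Gja1 at a log2 fold change of 1.81 with a false discovery rate of 0.0287 for growth factors against SCI only, and at 1.92 with 0.0285 for hydrogel CT against SCI only. For Aqp4, the authors' deposited table lists 1.22 with 0.0662 for growth factors against SCI only and 1.75 with 0.0108 for hydrogel CT against SCI only. For Gjb6 the authors' deposited table lists 2.00 with 0.0729 for growth factors against SCI only and 2.27 with 0.0642 for hydrogel CT against SCI only. Each fold change in the authors' deposited table has the sign found here, and no source used here gives the settings behind its false discovery rates.

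Marker levels of the same HA groups stand beside these values. In HA, summed microglia and macrophage markers were 129 to 1428 CPM in the hydrogel libraries and 767 to 7175 with SCI only, with 7 of 9 markers listed. Summed progenitor markers were 2073 to 4893 with hydrogel and 5611 to 8082 with SCI only, with 5 of 6 listed. Summed astrocyte markers were 39284 to 60038 with hydrogel and 34743 to 49625 with SCI only, with 12 of 12 listed. No marker tested of these lists was called in edgeR with either hydrogel against SCI only, and the median log2 difference of the 5 progenitor markers was 0.61 with growth factors and -0.40 with hydrogel CT. No listed marker of these lists was at 0 throughout a group, and Csf1r, Aif1 and Pdgfra were not listed. The protein-coding share of counts was 3.56% to 46.0% with hydrogel and 0.90% to 3.92% with SCI only. The part of these differences in the levels of Gja1, Gjb6 and Aqp4 was not tested.

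In FT, growth factors against hydrogel CT gave -0.63 (SE 0.88, adjusted p = 0.954) for Gja1, -1.35 (SE 0.87, adjusted p = 0.954) for Gjb6 and -0.39 (SE 0.78, adjusted p = 0.957) for Aqp4, with no member and 0% of the 610 genes tested called. Without 1729 and 1683 the values were -2.16 (adjusted p = 0.729) for Gja1 and -1.74 (adjusted p = 0.727) for Aqp4, while Gjb6 no longer passed the low-count filter. Growth factors against SCI only gave 1.61 (SE 0.89, adjusted p = 0.321) for Gja1, 1.90 (SE 0.91, adjusted p = 0.255) for Gjb6 and 0.37 (SE 0.78, adjusted p = 0.83) for Aqp4, with no member and 0.328% of genes called higher. By protein-coding total the differences were 2.28, 2.58 and 0.99 in the same order, none passed, and 4 genes were called higher and 8 lower, against 2 and 21 by TMM. Without 1729 and 1683 the direction turned to -0.044 (adjusted p = 0.977) for Gja1 and -1.09 (adjusted p = 0.336) for Aqp4. None of these FT differences passed after adjustment over all genes tested. The unadjusted p was 0.0473 for Gjb6 with growth factors against SCI only and, without 1729 and 1683, 0.0192 for Gja1 and 0.00961 for Aqp4 with growth factors against hydrogel CT.

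Hydrogel CT against SCI only in FT gave the single call among the treatment comparisons, for Gjb6 at 3.25 (SE 0.92, adjusted p = 0.0483). Gja1 stood at 2.25 (SE 0.92, adjusted p = 0.188) and the difference of Aqp4 was 0.77 (SE 0.82, adjusted p = 0.715). By protein-coding total Gjb6 still passed (adjusted p = 0.0292), with Gja1 at 2.97 (adjusted p = 0.0587) and Aqp4 at 1.49 (adjusted p = 0.279), with 10 genes called higher and 10 lower, against 2 and 18 by TMM. One of 3 members was called by TMM, against 0.328% of genes called higher. By the CPM levels, Gjb6 alone of the 3 had groups that did not overlap, as did 3.02% of 4411 genes. On the TMM scale its groups did overlap (20.85 to 392.2 CPM with hydrogel CT, 6.149 to 29.97 with SCI only). The FT counts of Gjb6 behind the call were 17, 4, 50 and 18 with hydrogel CT and 25, 15, 4 and 1 with SCI only. The call was lost without 1683 (adjusted p = 0.164), 1759 (0.121), 1762 (0.0727), 9596 (0.142), 9843 (0.0818), 9874 (0.169) or 9935 (0.148) and kept without 1724 (0.0387). Without 1729 and 1683 Gjb6 was not tested, and Gja1 stood at 2.12 (adjusted p = 0.134). The authors' deposited table lists Gjb6 at 3.17 with a false discovery rate of 0.0231 here. Microglia and macrophage markers summed to 1177 to 25415 CPM in FT with hydrogel CT and 35020 to 78928 with SCI only. Astrocyte markers summed to 14966 to 72252 and 12777 to 19294 CPM in the same order. The protein-coding share of counts was 21.7% to 61.1% and 1.2% to 4.7%. Total counts were 19607 to 85234 and 2241603 to 5432938. The part of these values in the difference was not tested.

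The balance between the genes within a library does not depend on how libraries are scaled. In HA, the ratio of Gjb6 counts to Gja1 counts was 0.958, 0.0817 and 1.53 with growth factors, 0.546, 1.34 and 1.04 with hydrogel CT, and 1.14, 0.601, 0.76 and 0.627 with SCI only. Library 1687 stood apart, with 37 counts of Gjb6 to 453 of Gja1 and an exact 95% binomial interval of 0.0568 to 0.114, against 0.546 to 1.53 in the other 9. Its ratio of Aqp4 to Gja1 was also the lowest in HA, at 1.66 (1.47 to 1.87), against 3.58 to 7.58. The intervals cover counting error only, since amplified reads are not separate molecules. The astrocyte marker sum of 1687 was 43826 CPM, within the range of the other HA libraries.

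Of 12 comparisons of these ratios between treatments, none passed after adjustment. The lowest exact two-sided permutation p belonged to the ratio of Aqp4 to Gja1 in FT with growth factors against SCI only, where the mean log2 ratio was 1.91 with growth factors (n = 5, counting 1645 with 1 count of Aqp4 and 0 of Gja1) and 3.46 with SCI only (n = 4), a difference of -1.56 (exact p = 0.0318, adjusted p = 0.381). In HA the same ratio differed by -0.74 between these groups (exact p = 0.229, adjusted p = 0.686). The smallest p that 3 libraries against 3 can give is 0.1, and 3 against 4 can give 0.0571. In FT the smallest possible p was 0.0159 or 0.0286. Even at these smallest values, none of the 12 comparisons could pass after adjustment. These tests therefore cannot decide whether a ratio differed between treatments. In FT the ratio of Gjb6 to Gja1 ranged over 12 libraries from 0.25 to 2.27, on 1 to 52 counts of either gene, and that of Aqp4 to Gja1 from 1.88 to 33.

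**Figure D3:**
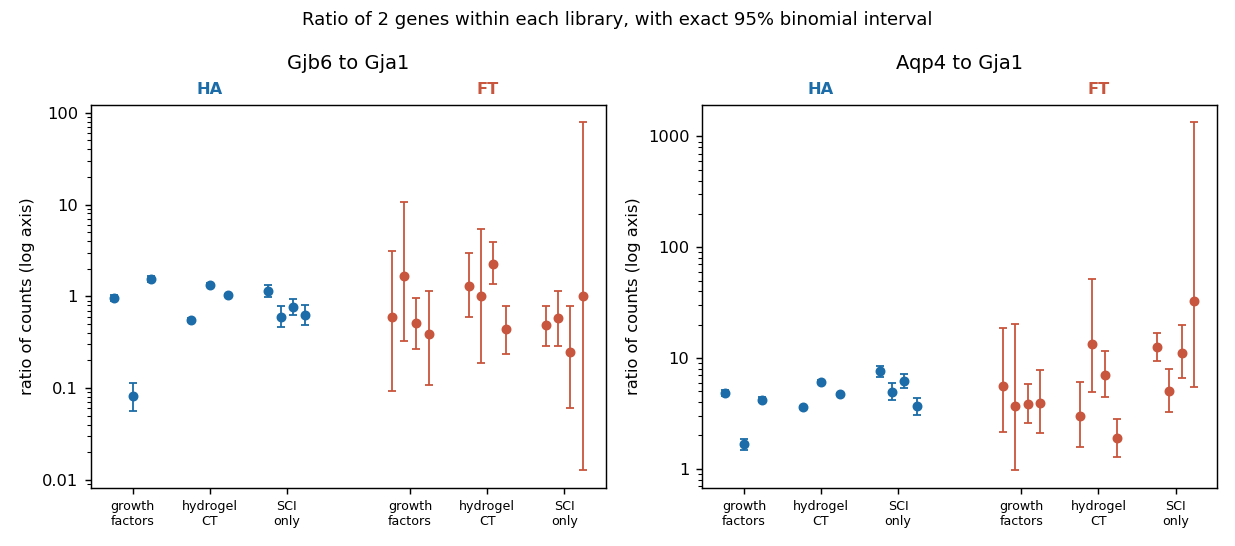
Ratio of Gjb6 counts to Gja1 counts (left) and of Aqp4 counts to Gja1 counts (right) in each library (log y axis), by fraction and treatment (x axis). Bars are exact 95% binomial intervals, which cover counting error only, and the HA point at 0.0817 on the left is library 1687 with growth factors. FT intervals are wide, since as few as 1 count of a gene lies behind a ratio.

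The members were also compared with each other across the 10 HA libraries, in log2 CPM (TMM, over all counts). The correlation of Aqp4 and Gjb6 was r = 0.91 (rho = 0.842), and Gjb6 ranked 9 among 1360 genes by likeness to Aqp4. That of Aqp4 and Gja1 was r = 0.786 (rho = 0.758, rank 90), and that of Gjb6 and Gja1 was r = 0.546 (rho = 0.442, Gja1 being at rank 328 for Gjb6). By the CPM levels given above, the SCI only libraries lie below all hydrogel libraries for Gja1 and below all but 1687 for Gjb6 and Aqp4, so these correlations carry that difference between groups and describe this set only. Within the 6 hydrogel libraries, r was 0.938 for Aqp4 with Gjb6, 0.169 for Aqp4 with Gja1 and -0.023 for Gjb6 with Gja1. Without 1687, over 9 libraries, r was 0.962, 0.934 and 0.912 in the same order. Those 9 libraries include SCI only, and the hydrogel libraries without 1687 are too few for a correlation.

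**Figure D4:**
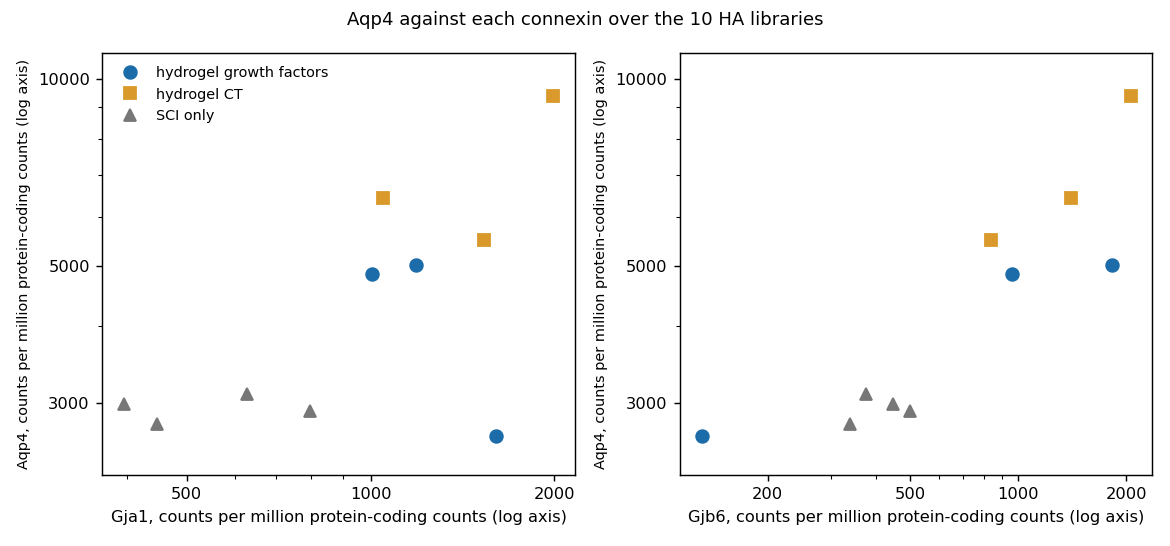
Level of Aqp4 (y axis) against that of Gja1 (left) and Gjb6 (right) in the 10 HA libraries, in CPM of protein-coding counts on log axes. Each point is a library, and symbols give the treatment. Library 1687 with growth factors, at 2656 for Aqp4, lies among the high libraries for Gja1 (1602) and is the lowest for Gjb6 (130.9).

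The genes most alike were taken from the same 1360 genes, those with a mean of at least 10 CPM on that scale. For Gja1 they included Smpdl3a, Nudt4, Kif5b and Hmgn5, with r from 0.902 to 0.908. Within the 6 hydrogel libraries their r with Gja1 was -0.14 (Smpdl3a) to 0.657 (Nudt4). For Gjb6 they were Magi2, Lrrc58, Strap, Ddah1 and Hist1h2bc, with r from 0.91 to 0.952, and from 0.93 to 0.985 within the hydrogel libraries. For Aqp4 they were Fmn2, Tmem106b, Tmem229a, Qk and Dazap2, with r from 0.931 to 0.981, and from 0.918 to 0.977 within the hydrogel libraries.

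A list of connexin and aquaporin partners held 44 genes: other connexins and pannexins, connexin partners, other aquaporins, the dystrophin complex with its laminin and agrin anchors, and other channels and partners of the endfoot. In HA against FT, 15 were tested, 8 were higher and 0 lower, where 12.5% of all genes were higher. The median of the list was 1.45, against 0.31 over all genes tested. Among channels and partners of the endfoot, 6 of 7 tested were higher in HA. They included Gpr37l1, a glial receptor (2.72, SE 0.43, adjusted p = 1.2e-05), Atp1b2, a subunit of the sodium pump (2.70, SE 0.51, adjusted p = 0.000187), Hepacam, a glial adhesion molecule (2.62, SE 0.42, adjusted p = 1.55e-05), Kcnj10, an inward rectifier potassium channel (2.11, SE 0.36, adjusted p = 4.87e-05), and Slc4a4, a sodium bicarbonate cotransporter (2.08, SE 0.38, adjusted p = 9.43e-05). Slc4a4 is also one of the astrocyte markers. Ezr, which encodes the membrane linker ezrin, stood at 0.37 (adjusted p = 0.635).

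Among the relatives and partners of the connexins, Gjc3, a connexin gene of oligodendrocytes, was higher in HA (1.45, SE 0.41, adjusted p = 0.00944). Of the connexin partners, 2 were tested and 1 was higher. The other, Cnst, which encodes a protein that binds connexins on their way to the membrane, stood at 0.72 (adjusted p = 0.6). Of the dystrophin complex and its anchors, 5 of 15 were tested and none passed. Dtna, which encodes a dystrobrevin, stood at 1.38 (adjusted p = 0.0506), Utrn (utrophin) at 1.03 (adjusted p = 0.121), Lamc1 (a laminin chain) at 0.53, Sgcb (a sarcoglycan) at 0.52 and Sntb2 (a syntrophin) at -1.15. No other aquaporin passed the low-count filter.

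In HA with growth factors against SCI only, 19 of the 44 were tested, with 1 higher, 0 lower and a list median of 0.29, against 0.12 over all genes tested. All genes called in that comparison numbered 29, and 2 to 127 in fits that left out 1 library. With hydrogel CT against SCI only, 0 of 19 passed, with a median of 0.37. With growth factors against hydrogel CT, 0 of 19 passed. In FT, 5 of the 44 were tested and 0 passed in each of the 3 treatment comparisons.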

How the data were processed

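Per the labels' protocols, RNA of both fractions was amplified with the NuGEN Ovation system before paired-end sequencing. The submitters' processing notes name CASAVA 1.8.2, edgeR and the build mm10. The aligner, counter, strand setting and annotation are not given in the sources used. The authors deposited whole-number counts per Ensembl transcript in a table for each fraction (10389 HA rows, 5001 FT rows), with their own log2 fold changes, p-values and false discovery rates between treatments, per the file headers. Another 45 per-sample columns stayed unused.

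Counts were summed by gene symbol. Rows without a symbol (136 in HA, 35 in FT; at most 0.319% of a library's counts) were left out. Total counts were 7940025 to 24337017 in HA and 19607 to 5432938 in FT. Genes were tested two-sided with edgeR 4.0.16 (R 4.3.3, quasi-likelihood, TMM, filterByExpr with a minimum count of 10) over all genes, adjusted by Benjamini-Hochberg, threshold 0.05. HA was set against FT in the 20 libraries of 10 title numbers, on 4781 genes listed in both tables, with treatment as a covariate. Treatments were compared with 1 fit per fraction. Ratios were tested by exact permutation on counts plus 0.5 (scipy 1.17.1). DESeq2 1.42.0, other scalings and filters, and left-out libraries were alternatives. The script was tested on simulated data. Both fractions came from the same tissue per the design text, but that a title number marks the same tissue is inferred. Correlations of same-numbered libraries' deviations from their group means were 0.00206 to 0.0804, 0 of 10 over 0.1, so the number was not used as a block. With few FT reads and small groups, these low values cannot show that a number does not mark the same tissue. The ratios within a title number rest on that inference.

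No 2 libraries of a group were copies: chi-square per degree of freedom was 2.72 to 245. The labels do not say that libraries are separate animals, so the tests measure the spread between libraries, which may be technical. An overlap between groups was asked of genes with a count in at least 50% of the libraries compared. Transcripts were matched to GENCODE M21 (98.3% of HA and 99.1% of FT rows). The genes named were the members, the listed partner genes that passed or are direct partners, and for each member the 5 genes of highest correlation. Some genes that this rule names are not reported here. The members and lists were chosen with earlier results of these data known.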

Additional observations from a re-analysis of the deposited data

Results flagged for a closer look

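Each gene level and each ratio was searched in groups of 4 to 10 libraries by Dixon's ratio of the gap to the range. Of 20 such sets of values, 4 held a library far from the others. For independent normal values chance gives about 1 set in 20. These sets share libraries and genes, so their count cannot be read against that share. In FT with growth factors, library 1729 had an Aqp4 level of 12702 CPM, against 440.7 to 1911 in the other 4, and a Gja1 level of 3327 CPM, against 0 to 465.6. Its summed astrocyte markers also stood above those of the other FT libraries but 1683, and their part in these levels was not tested. In the same group, the ratio of Aqp4 to Gja1 was 5.6 in library 1685, on 5 counts of Gja1, against 3.67 to 3.92 in the other 3 that had both genes. The ratio of Gjb6 to Gja1 was 1.67 in library 1687, on 5 and 3 counts, against 0.385 to 0.6 in the other 3.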

How the results depend on the processing

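HA against FT kept its direction and its call for Gja1, Gjb6 and Aqp4 under all 20 alternatives, with ranges of 1.56 to 2.65, 1.77 to 2.78 and 1.17 to 2.05 on the log2 scale. Adding the title number as a replicate block gave 2.48, 2.54 and 1.94; in the paired fit Gja1 with SCI only passed (2.11, adjusted p = 0.0229), no other call of a member changed, and the calls over all genes for growth factors minus SCI only numbered 25 against 2. By protein-coding total, Gjb6 in HA against FT missed the threshold with growth factors (2.12) and SCI only (2.32), and its difference for growth factors minus SCI only turned to -0.20. Gja1 in HA against FT with SCI only passed with DESeq2 (2.04), transcript rows (2.09) and without libraries under 10000 protein-coding counts (2.08). Gja1 in HA with growth factors against hydrogel CT turned to 0.17 with RLE size factors and with DESeq2, 0.026 with protein-coding TMM and 0.012 with only the 2 groups. Passing under an alternative alone were Gja1 in HA with growth factors against SCI only (DESeq2, 1.68), Gjb6 and Aqp4 in HA with hydrogel CT against SCI only (only the 2 groups, 2.11 and 1.59), Gjb6 in FT with growth factors against SCI only (DESeq2, 2.47), and Gja1 in FT with hydrogel CT against SCI only (DESeq2, 2.77; only the 2 groups, 2.38). Gjb6 in that last comparison missed with RLE (3.69). FT with growth factors against SCI only turned without the shallow libraries to -0.32, -0.38 and -1.11 for Gja1, Gjb6 and Aqp4, and without 1683 and 1729, an alternative chosen after seeing the data, to -0.044 for Gja1 and -1.09 for Aqp4. The cause of these changes was not tested. Leaving out 1 library or title number at a time gave, for HA against FT, Aqp4 with hydrogel CT 1.58 to 1.96, Gja1 with SCI only 1.56 to 2.39, Gja1 with hydrogel CT minus SCI only -1.15 to 0.28, Gjb6 with SCI only 2.34 to 3.24, Gjb6 with growth factors 2.00 to 5.37, and Gjb6 with growth factors minus SCI only -0.71 to 2.70. For treatments in HA it gave Gja1 with growth factors against hydrogel CT -0.23 to 0.31, Gjb6 with growth factors against SCI only 1.14 to 2.49, and Gjb6 with growth factors against hydrogel CT -1.04 to 0.32. For treatments in FT it gave Aqp4 and Gja1 with growth factors against SCI only -1.24 to 0.76 and -0.20 to 1.97, and Gjb6 with hydrogel CT against SCI only 2.55 to 3.80. For ratios it gave Aqp4 to Gja1 in FT with growth factors against hydrogel CT -0.74 to 0.16, Gjb6 to Gja1 in FT with growth factors against SCI only -0.039 to 0.67, and Gjb6 to Gja1 in HA -0.0087 to 0.64 (hydrogel CT against SCI only), -1.43 to 0.68 (growth factors against SCI only) and -1.69 to 0.41 (growth factors against hydrogel CT). Counts of all genes called moved by more than 1.5 times in most treatment comparisons. DESeq2 called 710 against 29 by edgeR in HA with growth factors against SCI only, 232 against 13 with hydrogel CT against SCI only, and 271 against 6 with growth factors against hydrogel CT. In FT with hydrogel CT against SCI only edgeR called 20, and 149 with no low-count filter, 194 with a minimum mean of 5 CPM and 209 with only the 2 groups. In FT with growth factors against SCI only it called 23, 174 with no low-count filter and 186 with that minimum mean. Where edgeR called 0 genes for the difference between fractions with growth factors minus hydrogel CT and with hydrogel CT minus SCI only, 579 and 261 had an unadjusted p under 0.05 and DESeq2 called 36 and 1; with growth factors minus SCI only edgeR called 2 and DESeq2 called 70; in FT with growth factors against hydrogel CT edgeR called 0, 23 had an unadjusted p under 0.05 and DESeq2 called 0. Few FT reads limit every FT value: Gja1 and Gjb6 had 0 to 52 counts a library there.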
